A study of Mus musculus with 2 samples.

Results

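The cDC2-like dendritic cells of MC38 tumours were a rare gated population of 101 barcodes among 28363 eligible barcodes in 2 single-cell libraries. A barcode stands for 1 captured droplet, and a unique molecular identifier (UMI) for 1 captured transcript. An eligible barcode held at least 1000 UMIs, of which at most 20% came from mitochondrial genes. A member also held at least 2 UMIs of Cd209a, Ccl17, Flt3 and Kmo together, at least 10 UMIs of Cd74 and H2-Ab1 together, 0 UMIs of Xcr1, Clec9a, Ccr7, Cd3d and Cd3e, at most 3 UMIs of Hmga2 and Rhox5 together, and fewer than 20 UMIs of C1qa, C1qb and C1qc per 10000 UMIs. The members were chosen by these measured values, so the levels of those 16 genes are given as a description only.

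The study profiled tumours of MC38, a mouse colon carcinoma line, and asked how loss of MBTPS1 alters the tumour microenvironment. Mbtps1 encodes site-1 protease, which cleaves membrane-bound transcription factors in the Golgi. One library carried the genotype label Mbtps1 WT (control) and the other Mbtps1 KD (knockdown), while the series text speaks of a knockout. The labels give for both the same tissue and cell line, and no age, sex, strain, time, treatment or number of pooled tumours. They do not say which cells carry the change. Each group is 1 library, so no difference has a replicate check, no p-value is given, and every interval is a 95% interval for counting error only.

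Conventional type 2 dendritic cells arise from Flt3-dependent progenitors, take up antigen and present it on MHC class II to CD4 T cells. In mice they usually carry Sirpa and Itgam, and their differentiation depends on factors such as Irf4, Klf4 and Notch2. Cd209a encodes a C-type lectin related to human DC-SIGN, and Ccl17 a chemokine for T cells that bear CCR4. Flt3 is the receptor for the growth factor of dendritic-cell progenitors, and Kmo is an enzyme of the kynurenine pathway. Monocytes can also take on several of these markers in inflamed tissue.

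The control library listed 177399315 UMIs and the knockdown library 174190399. Eligible barcodes numbered 12353 and 16010, where the labels state about 6000 cells loaded and 3000 targeted per channel. Of the eligible barcodes, 51 sequences occurred in both libraries, and 0 of the members were among them. In barcodes gated as tumour cells, Mbtps1 stood at 28.6 CPM (UMIs of a gene scaled to 1000000 UMIs of the gate) in the control and 12.3 CPM in the knockdown library. Among the members it stood at 25.5 CPM from 8 UMIs and at 22.8 CPM from 4 UMIs, a ratio of 0.894 (interval 0.197 to 3.34).

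The control library held 57 members and the knockdown library 44. Member barcodes carried 2277 to 13547 UMIs in the control library (median 4719) and 1005 to 20701 in the knockdown library (median 3188.5). The medians of detected genes were 1810 and 1409. Scrublet, which scores barcodes by their likeness to simulated doublets, called 0 control and 2 knockdown members doublets. The rule left many barcodes close by. Exactly 2 marker UMIs were carried by 17 control and 21 knockdown members, and 41 and 35 barcodes met every other condition with 1 marker UMI. Another 486 and 576 barcodes met every other condition with 0 marker UMIs. The condition on C1q alone kept out 17 and 7 barcodes, that on Ccr7 18 and 5, and that on Xcr1 and Clec9a 18 and 4.

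The gene positions below come from GENCODE vM21 on GRCm38. All 4 marker genes are protein-coding. Cd209a lies on chromosome 8 from 3743397 to 3748984 on the minus strand, and Ccl17 on chromosome 8 from 94810453 to 94812036 on the plus strand. Flt3 lies on chromosome 5 from 147330741 to 147400489 on the minus strand, and Kmo on chromosome 1 from 175620381 to 175662116 on the plus strand. The promoters of Cd209a and Ccl17 are shown because no member barcode held UMIs of both genes. Both are genes of the rule, which a barcode can meet on either alone. Their separation thus describes the gate, and their regulation was not tested. They are RefSeq sequences on GRCm38.p6, 5′ to 3′ on the strand of the gene, from 250 bases before to 50 bases after the gene start, with the ETS-type motif GGAAGT in capitals where it occurred on either strand.
Cd209a promoter, chr8:3748935-3749234, minus strand: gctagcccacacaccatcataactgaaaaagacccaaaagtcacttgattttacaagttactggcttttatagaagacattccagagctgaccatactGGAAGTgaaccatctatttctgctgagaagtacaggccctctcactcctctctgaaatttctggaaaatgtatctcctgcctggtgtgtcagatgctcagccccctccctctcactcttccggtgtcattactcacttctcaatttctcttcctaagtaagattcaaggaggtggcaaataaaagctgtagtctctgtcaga
Ccl17 promoter, chr8:94810203-94810502, plus strand: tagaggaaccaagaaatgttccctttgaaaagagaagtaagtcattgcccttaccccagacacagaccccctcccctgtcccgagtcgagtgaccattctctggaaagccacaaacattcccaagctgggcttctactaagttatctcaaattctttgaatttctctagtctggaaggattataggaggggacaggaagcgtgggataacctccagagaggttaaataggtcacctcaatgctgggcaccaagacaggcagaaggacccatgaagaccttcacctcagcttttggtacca
The motif occurred 1 time in the Cd209a window and 0 times in the Ccl17 window, and 23.8% of 32851 mouse promoter windows of the same length held it. The match is a description of these letters and does not mark a bound site.

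Members entered the gate by different markers. Cd209a UMIs were found in 25 of 57 control members (43.9%, interval 30.7 to 57.6%) and in 24 of 44 knockdown members (54.5%, interval 38.9 to 69.6%). Ccl17 UMIs were found in 7 members of each library, with up to 53 UMIs in 1 control barcode and up to 23 in 1 knockdown barcode. Flt3 was found in 28 control and 13 knockdown members, and Kmo in 31 and 23. Cd209a and Ccl17 occurred together in 0 members of either library, and so did Ccl17 and Flt3. Flt3 and Kmo shared 14 control and 9 knockdown members. Only 1 of the 4 markers was seen in 23 control and 22 knockdown members, and 3 markers were seen in 0 and 1.

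With every member thinned to 1000 UMIs, 21.1% of control and 29.5% of knockdown members still held a Cd209a UMI. For Ccl17 these shares were 8.77% and 13.6%, for Flt3 10.5% and 9.09%, and for Kmo 17.5% and 20.5%. In the 466 control and 1102 knockdown barcodes gated as T cells, which should lack these genes apart from stray RNA, the thinned shares were between 0.0% and 0.215%. Before thinning, the median depth of the T-cell gate was 3132 UMIs in the control and 2358 UMIs in the knockdown library.

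**Figure D1:**
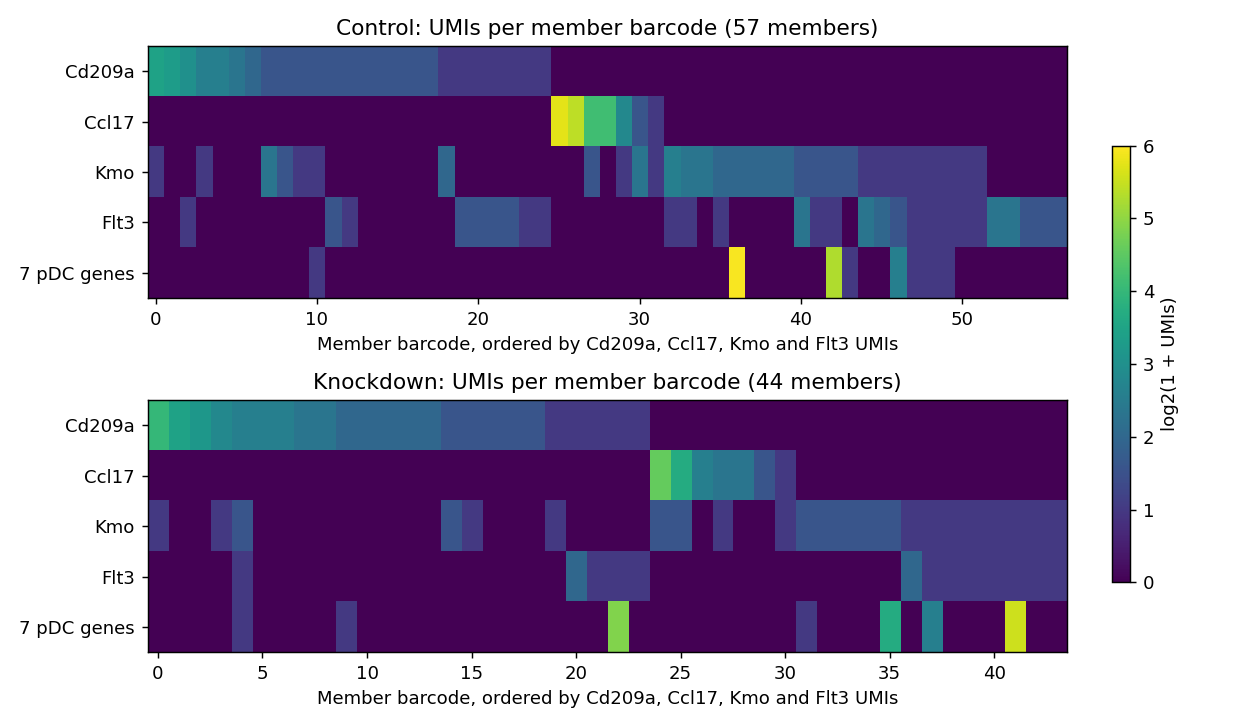
UMIs of the 4 marker genes and the summed UMIs of 7 plasmacytoid genes in each member barcode (columns), as log2(1 + UMIs), for the control (57 members) and knockdown library (44 members). Cd209a and Ccl17 occupy separate columns in both libraries, and a few columns hold nearly all plasmacytoid UMIs.

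The summed members carried the cDC2 label only in part. Of 20 cDC2 identity genes, 16 had UMIs in each library, 4 of which are the markers of the rule, and Esam, Clec4a4, Dtx1 and Il22ra2 were at 0 UMIs in both. Zero UMIs over the members allow up to 9.56 CPM in the control and 17.1 CPM in the knockdown library. Clec10a, a lectin for galactose-type glycans typical of cDC2s, stood at 124 CPM in control and 188 CPM in knockdown members. It reached 20.6 CPM at most in the cDC1, mature dendritic cell, monocyte and macrophage gates. Mgl2, its close relative, stood at 194 and 330 CPM, against at most 61.0 CPM in those gates. Sirpa stood at 108 and 120 CPM and Itgam at 115 and 96.8 CPM, in both cases below the monocyte and macrophage gates. Irf4, a transcription factor needed by many cDC2s, rested on 10 and 5 UMIs.

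Genes whose level in the members most exceeded the highest of those 4 gates, in the library where the excess was smaller, were Siglech, Ffar2, Cox6a2, Cdh1, Clec10a, Ctnnd2, Mgl2, Chn2, Bcl11a, Rin3, Ank and Prkca. Because every gate was drawn on expression, this order describes the gates and is not tested. Ffar2, a receptor for short-chain fatty acids, stood at 73.3 and 85.4 CPM in members and at most 0.981 CPM in the other 4 gates. Cdh1, encoding E-cadherin, stood at 112 and 120 CPM, against at most 16.1 CPM. Bcl11a, a transcription factor of early dendritic and plasmacytoid development, stood at 102 and 103 CPM. The cDC1 gate held only 14 and 7 barcodes and the mature gate 17 and 10, so that 0 UMIs there allow levels up to 92.9 CPM in the sparsest of them. Outside those 4 gates, Cox6a2 stood at 55.3 CPM in the tumour gate of the control library, and Prkca at 281 CPM there and at 338 CPM in the T-cell gate.

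**Figure D2:**
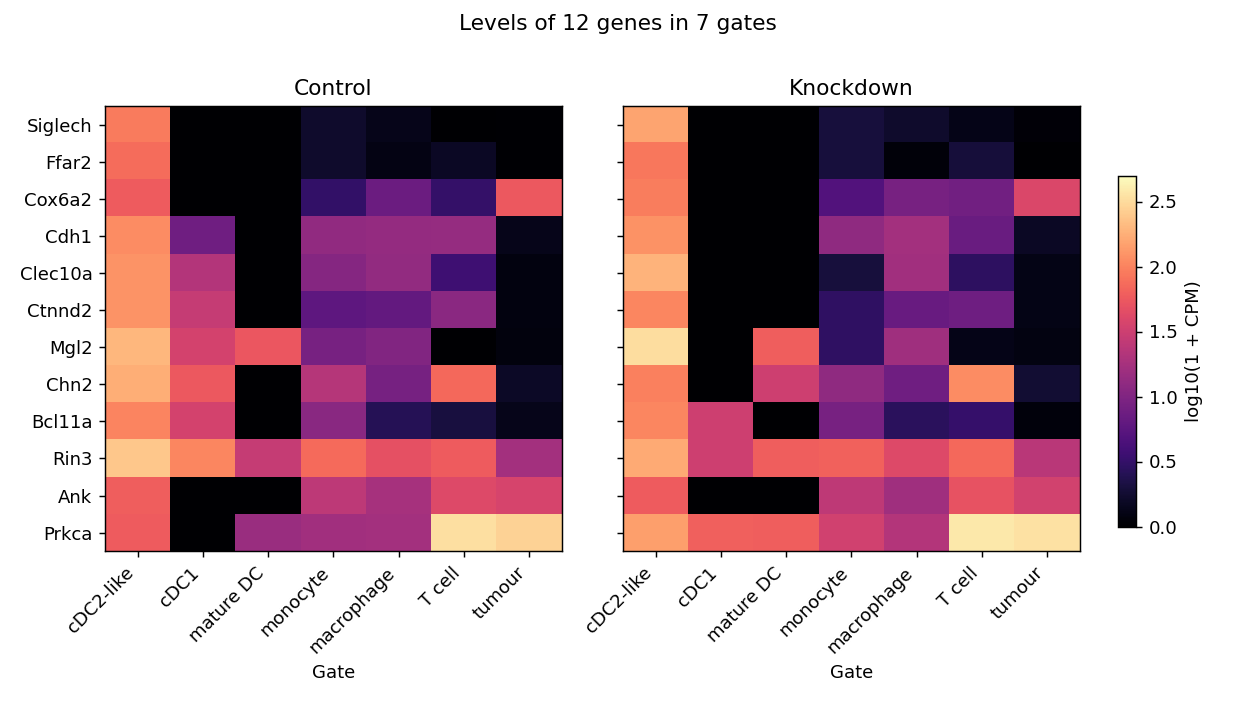
Levels of the 12 genes as log10(1 + CPM) in 7 gates of the control (left) and knockdown library (right). Clec10a, Mgl2, Ffar2 and Cdh1 are bright in the cDC2-like column and dim in the others, while Prkca is brightest in the T-cell and tumour columns.

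Siglech, which marks plasmacytoid dendritic cells, led that order because of a handful of barcodes. The 7 plasmacytoid genes Siglech, Ccr9, Ly6d, Cox6a2, Klk1, Pacsin1 and Cd300c summed to 108 UMIs in control and 94 UMIs in knockdown members. Of these, 90.7% lay in 2 control barcodes and 91.5% in 3 knockdown barcodes, and 49 and 37 members held 0. Those barcodes carried 40 to 43 UMIs of Cd74 and H2-Ab1 in the control and 13 to 19 in the knockdown library, against member medians of 103 and 72.5. They held at most 5 and 6 UMIs of Cst3. By these values they go against the cDC2 label. They were picked out after their values were seen.

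The members also split by Cd209a, along a line chosen after the values were seen and described without a test. Cst3 encodes cystatin C, an inhibitor of cathepsins that dendritic cells carry in large amounts. Its median was 25.7 UMIs per 10000 UMIs in the 25 control members with a Cd209a UMI and 156 in the 32 without. In the knockdown library the medians were 22.6 in 24 members and 102 in 20. A level of at least 100 was reached by 2 control members with Cd209a and 19 without, and by 1 and 10 knockdown members. The ranges overlapped, from 5.83 to 216 with and from 2.34 to 474 without Cd209a in the control library. Members with Cd209a were the shallower ones, at medians of 3677 against 5951 UMIs in the control and 2763 against 4079.5 UMIs in the knockdown library, and the part of depth in this split was not tested.

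**Figure D3:**
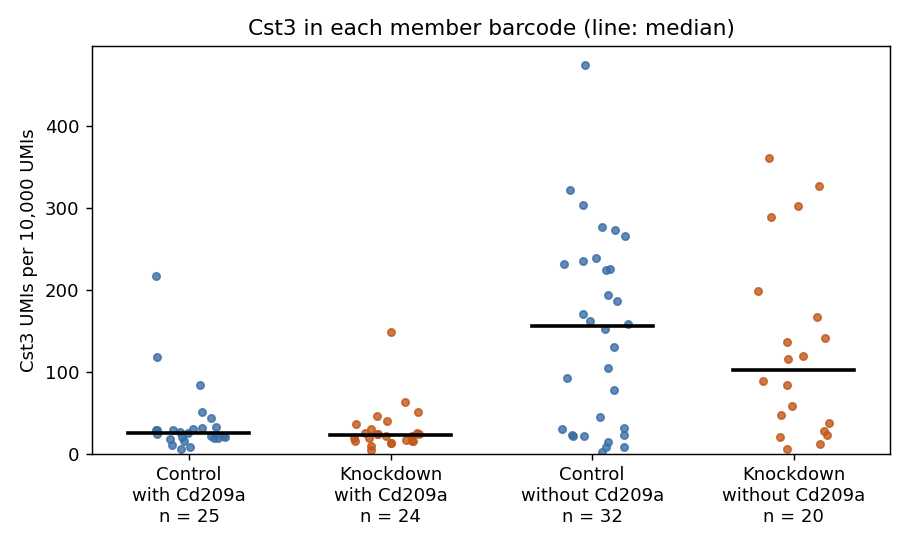
Cst3 UMIs per 10000 UMIs in every member barcode (points) by library and by the presence of a Cd209a UMI, with the median as a line. The medians are 25.7 and 22.6 with Cd209a and 156 and 102 without.

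Across the 1482 genes with at least 50 member UMIs over both libraries and at least 50 CPM in 1 of them, 26 (1.75%) were at least 2 times higher in members with Cd209a in both libraries. Another 34 (2.29%) were at least 2 times lower in both, and 12 were past the same fold in opposite directions. Higher with Cd209a were Lyz2, encoding lysozyme, and Wfdc17, a secreted protein of myeloid cells. Lyz2 stood at 2256 CPM with and 552 CPM without Cd209a in the control library, and at 1074 and 415 CPM in the knockdown library. Wfdc17 was 4.24 times higher with Cd209a in the control library (interval 2.99 to 6.07), and stood at 1188 CPM with and 466 CPM without in the knockdown library. Ccl9, a macrophage-inflammatory chemokine, stood at 500.2 and 75.5 CPM in the control library. In the knockdown library it had 43 UMIs with and 0 without Cd209a, at least 17.5-fold higher against a floor of 3 UMIs. Cd44, the hyaluronan receptor, was 2.73 times higher in control (interval 1.76 to 4.28) and 3.72 times in knockdown members (interval 2.19 to 6.62). Tmem176b, Tmem176a, Xylt1, Tsc22d3, H2afv, Cxcl10, Pde7b and Plaur were on the same side. For Pde7b, 45.0% of the knockdown UMIs came from 1 barcode, and without it the knockdown ratio was 0.955 (interval 0.360 to 2.42).

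Higher without Cd209a were Plet1, Kit, Id2 and Cxcl16 among others. Plet1, a surface protein known from migratory dendritic cells, had 0 UMIs with Cd209a in both libraries and 65 control and 13 knockdown UMIs without, at least 10.4-fold and at least 3.55-fold more. Kit, the stem-cell factor receptor, stood at 39.2 CPM with and 142 CPM without Cd209a in the control library and at 12.6 and 155 CPM in the knockdown library. Id2, a transcriptional regulator required for conventional dendritic cells, had ratios of 0.235 (interval 0.121 to 0.418) and 0.339 (interval 0.150 to 0.697). Cxcl16, a membrane-bound chemokine, had ratios of 0.302 (interval 0.170 to 0.504) and 0.232 (interval 0.0942 to 0.501). Irf8, the factor of cDC1s and plasmacytoid cells, had ratios of 0.415 and 0.296, the latter with 43.9% of the UMIs in 1 barcode and at 0.624 (interval 0.229 to 1.57) without it. Dcstamp, Myo1e, Bcl2a1a, Bcl2a1b, Pvt1, Plscr1, Rgs1 and Nr4a3 completed the named genes of this side. For Pvt1, 80.0% of the knockdown UMIs came from 1 barcode, without which 2 UMIs were left with and 2 without Cd209a. For Myo1e, 50.7% of the control UMIs came from 1 barcode, without which its control ratio of 0.192 became 0.402. With the barcode richest in each gene left out of each library, an alternative chosen after seeing the data, 13 of the 26 genes higher with Cd209a and 23 of the 34 lower ones were still past the fold in both libraries. Of the 24 genes named here these were 9 of 12 and 11 of 12, all but Cxcl10, H2afv, Pde7b and Pvt1.

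Among cDC2 markers, Clec10a was higher with Cd209a, at ratios of 2.42 (interval 1.23 to 4.83) and 3.25 (interval 1.46 to 7.95). Mgl2 had ratios of 1.01 (interval 0.562 to 1.77) and 0.801 (interval 0.452 to 1.40), which became 1.64 and 1.69 without its richest barcode in each library. Flt3 and Kmo, genes of the rule, had ratios of 0.786 and 0.854, and of 0.519 and 0.407. Of other cDC2 genes, Itgam had ratios of 1.66 and 3.96, Cd209d 2.77 and 5.49, Irf4 1.39 and 1.83, and Notch2 1.01 and 4.57. Sirpa, at 1.13 and 0.488, and Klf4, at 0.130 and 1.37, lay on opposite sides of 1 in the 2 libraries. These genes rested on 1 to 39 UMIs per sum. Plac8, an abundant monocyte gene, was higher with Cd209a by ratios of 1.33 and 1.47. Ly6c2 had ratios of 1.56 and 1.48, Cd14 1.46 and 3.25, and Ccr2 1.30 and 3.96. The intervals of these 3 included 1 except for Ccr2 in the knockdown library. Fcgr1 had ratios of 1.15 and 0.976. S100a4, the most abundant of these, stood at 2481 CPM with and 3064 CPM without Cd209a in the control library, and at 2945 and 2249 CPM in the knockdown library. The 12 monocyte markers, S100a4 among them, summed to 5678 CPM with and 5539 CPM without Cd209a in the control library. In the knockdown library they summed to 5827 and 3908 CPM. The monocyte gate, drawn in part on Ly6c2 and Ccr2 from this list, summed to 11000 and 11600 CPM.

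**Figure D4:**
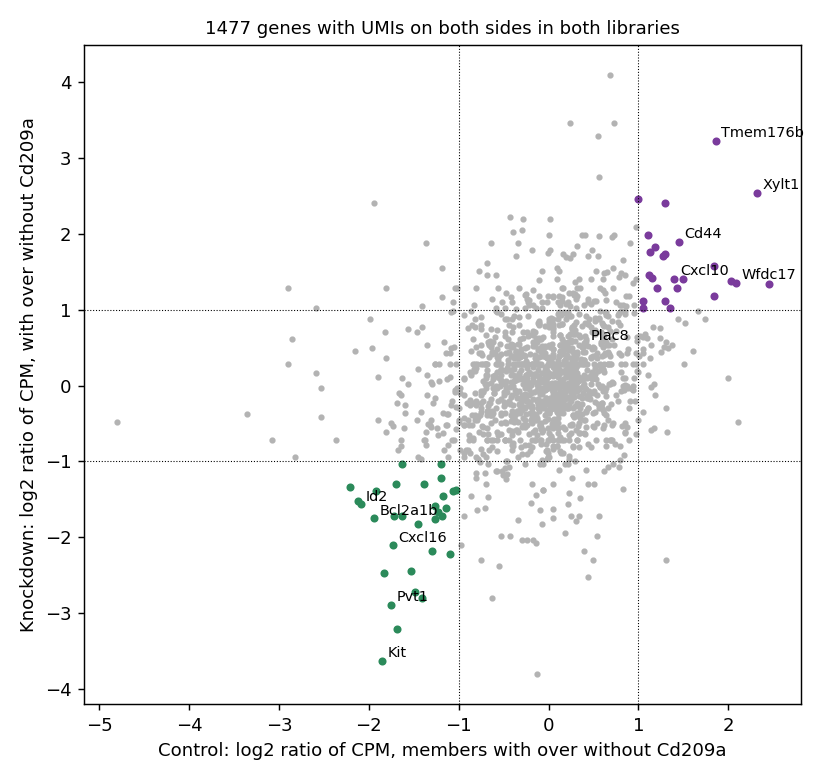
Log2 ratio of CPM in members with over members without a Cd209a UMI, control library on the x axis and knockdown library on the y axis, for 1477 genes with UMIs in all 4 sums. Purple and green points are past a 2-fold difference in the same direction in both libraries; dotted lines mark that fold.

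Macrophage and mature dendritic cell markers were present, and their sums were higher in the knockdown members. The 16 macrophage genes, with C1q limited by the rule, summed to 1399 CPM in control and 1748 CPM in knockdown members, against 39120 and 35940 CPM in the macrophage gate drawn in part on them, with 1 gene at 0 in each. The 18 genes of mature dendritic cells, with Ccr7 at 0 by the rule, summed to 685 and 951 CPM, against 11450 and 15550 CPM in the mature gate drawn in part on them, with 6 and 5 genes at 0. Single genes and barcodes weighed on both sums. Cd63, which is on both lists, stood at 82.9 and 296 CPM, with 34.6% of its knockdown UMIs in 1 barcode. Apoe, on the macrophage list, stood at 456 and 661 CPM, with 54.3% of its knockdown UMIs in 1 barcode. The Apoe ratio of 1.45 turned to 0.565 with a minimum of 3000 UMIs. The sums without these genes were not computed. Markers of lymphocytes and granulocytes were sparser than these lists. All 7 mast cell and basophil genes were at 0 UMIs in both libraries. The 7 neutrophil genes held 6 control and 8 knockdown UMIs, with S100a9 and Retnlg at 0. The 9 B-cell genes held 20 and 16 UMIs, most of them Ighm, with Cd79a at 0. The 12 T and NK genes held 126 and 43 UMIs, of which Klrd1 (CD94) made up 112 and 35. Markers of the tumour cells summed to 150 CPM in control and 325 CPM in knockdown members, and those of fibroblasts and endothelium to 89.2 and 353 CPM. The sums of macrophage, mature dendritic, tumour and stromal markers were thus higher in the knockdown members, and their part in the differences below was not tested.

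The share of members among eligible barcodes was 0.461% in the control library (Clopper-Pearson interval 0.350 to 0.597%) and 0.275% in the knockdown library (interval 0.200 to 0.369%). The ratio of the shares, knockdown over control, was 0.596 (exact conditional interval 0.393 to 0.898). The cDC1 gate had a ratio of 0.386 (interval 0.132 to 1.02), the mature gate 0.454 (interval 0.186 to 1.05) and the macrophage gate 0.628 (interval 0.599 to 0.659). The T-cell gate had a ratio of 1.82 (interval 1.64 to 2.04). All shares of 1 library have the same eligible barcodes as denominator, so they are not independent of each other. The cause of these ratios was not tested. Among the barcodes of the 3 dendritic gates, cDC2-like members made up 64.8% of 88 (interval 53.9 to 74.7%) in the control and 72.1% of 61 (interval 59.2 to 82.9%) in the knockdown library, with a ratio of 1.11 (interval 0.734 to 1.68). Applied to counts thinned to 1000 UMIs per barcode, the rule found 15 and 10 barcodes, and the interval of their ratio of 0.514 reached from 0.207 to 1.22. Of these, 12 control and 10 knockdown barcodes were members on full counts. The other 3 control barcodes were let in at the C1q limit by thinning.

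Of the 1482 genes tested in the summed members, 92 (6.21%) were at least 1.5 times higher in the knockdown library and 173 (11.7%) at least 1.5 times lower. These calls rest on fold alone. Of 10 mitochondrial genes among those tested, 9 had ratios below 1 and 2 were called lower, mt-Co1 at 0.637 (interval 0.561 to 0.722) and mt-Atp6 at 0.654 (interval 0.590 to 0.725). The median mitochondrial share per member was 1.72% in the control and 1.29% in the knockdown library, and its part in the calls was not tested. The median log2 ratio of all genes was -0.06. With ratios rescaled to that median, 120 genes were higher and 144 lower. In 149 genes over 25% of the UMIs of a library came from 1 barcode, and such genes were not eligible for the named genes that follow.

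The named genes with higher levels in knockdown members included stress-induced regulators. Atf3, a stress-response transcription factor, stood at 264 CPM in control and 513 CPM in knockdown members, a ratio of 1.94 (interval 1.42 to 2.64). Gadd45b, a stress-induced signalling protein, stood at 102 and 216 CPM, a ratio of 2.12 (interval 1.29 to 3.51). Zfp36, which speeds decay of cytokine transcripts, stood at 532 and 763 CPM, a ratio of 1.43 (interval 1.13 to 1.81), below the fold of 1.5, and of 0.920 among members of 2000 to 6000 UMIs. Cybb, the catalytic subunit of the phagocyte NADPH oxidase, stood at 178 and 319 CPM, a ratio of 1.79 (interval 1.21 to 2.64). Stat2, a transducer of type I interferon signals, stood at 76.5 CPM from 24 UMIs and 159 CPM from 28 UMIs, a ratio of 2.08 (interval 1.16 to 3.76). Wfdc17 stood at 484 and 792 CPM, and Cox5b, a subunit of cytochrome c oxidase, at 395 and 609 CPM. The Wfdc17 ratio was 1.19 (interval 0.888 to 1.59) among members with Cd209a and 1.98 (interval 1.29 to 3.02) among those without. This stands beside the larger share of Cd209a members in the knockdown library, whose part was not tested.

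Taok1, a stress-activated kinase, Cnot6, a deadenylase subunit, and Aff1, a transcription elongation factor, had ratios of 2.04, 1.91 and 1.71, each on 28 to 44 UMIs per library. Calr, an ER chaperone, and Ly6a, an interferon-responsive surface protein, had ratios of 1.48 and 1.33, below the fold of 1.5, and Ly6a turned to 0.887 with at least 3 marker UMIs. All 12 ratios were above 1 both in members with and in members without Cd209a, and 4 of the 12 reached 1.5 in both. The genes were chosen by their ratio over these same members, so ratios on the same side are largely set by that choice.

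Lower levels in knockdown members were found for Cebpb, Ccr1, Mir142hg and Bcl2a1b among others. Cebpb, encoding the transcription factor C/EBP-beta, stood at 453 CPM in control and 194 CPM in knockdown members, a ratio of 0.428 (interval 0.285 to 0.626). It was lower by a similar ratio with Cd209a (0.408, interval 0.230 to 0.694) and without (0.402, interval 0.215 to 0.702). Ccr1, a receptor for inflammatory CC chemokines, stood at 162 CPM from 51 UMIs and 51.3 CPM from 9 UMIs, a ratio of 0.315 (interval 0.137 to 0.647). Mir142hg, the host transcript of a haematopoietic microRNA, stood at 319 and 114 CPM, a ratio of 0.357 (interval 0.209 to 0.582). Bcl2a1b, a survival gene with near-identical copies between which reads may be divided, stood at 685 and 319 CPM, a ratio of 0.465 (interval 0.340 to 0.627). Gng10, a G-protein subunit, was found in 53 control and 28 knockdown members, with a ratio of 0.518 (interval 0.369 to 0.716). Bin2, a membrane-bending protein, Pkib, an inhibitor of protein kinase A, Tbc1d8, a Rab regulator, and Mpp7, a scaffold protein, had ratios of 0.350, 0.462, 0.393 and 0.470.

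Cst3, Tmsb4x and Tmsb10 were abundant genes among the 12 named lower ones. Cst3 stood at 11930 CPM in control and 8577 CPM in knockdown members, a ratio of 0.719 (interval 0.677 to 0.763) that turned to 1.06 among members of 2000 to 6000 UMIs. Among members with Cd209a its ratio was 0.651 and among those without 0.843, beside the larger share of Cd209a members in the knockdown library. Tmsb4x, an actin-binding thymosin, stood at 22260 and 16420 CPM, a ratio of 0.738. Its ratio was 0.998 (interval 0.930 to 1.07) with Cd209a and 0.630 (interval 0.595 to 0.668) without. Tmsb10 had a ratio of 0.672. Among other abundant genes, Actb stood at a ratio of 0.963, S100a6 at 0.995 and Fau, a ribosomal protein gene, at 1.12 (interval 1.04 to 1.21). Of the 12 named lower genes, 11 had ratios below 1 in both kinds of members and 7 were past the fold in both. The exception was Mpp7, at 1.61 with and 0.172 without Cd209a. These genes too were chosen by their ratio over the same members, which largely sets the side of both ratios.

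**Figure D5:**
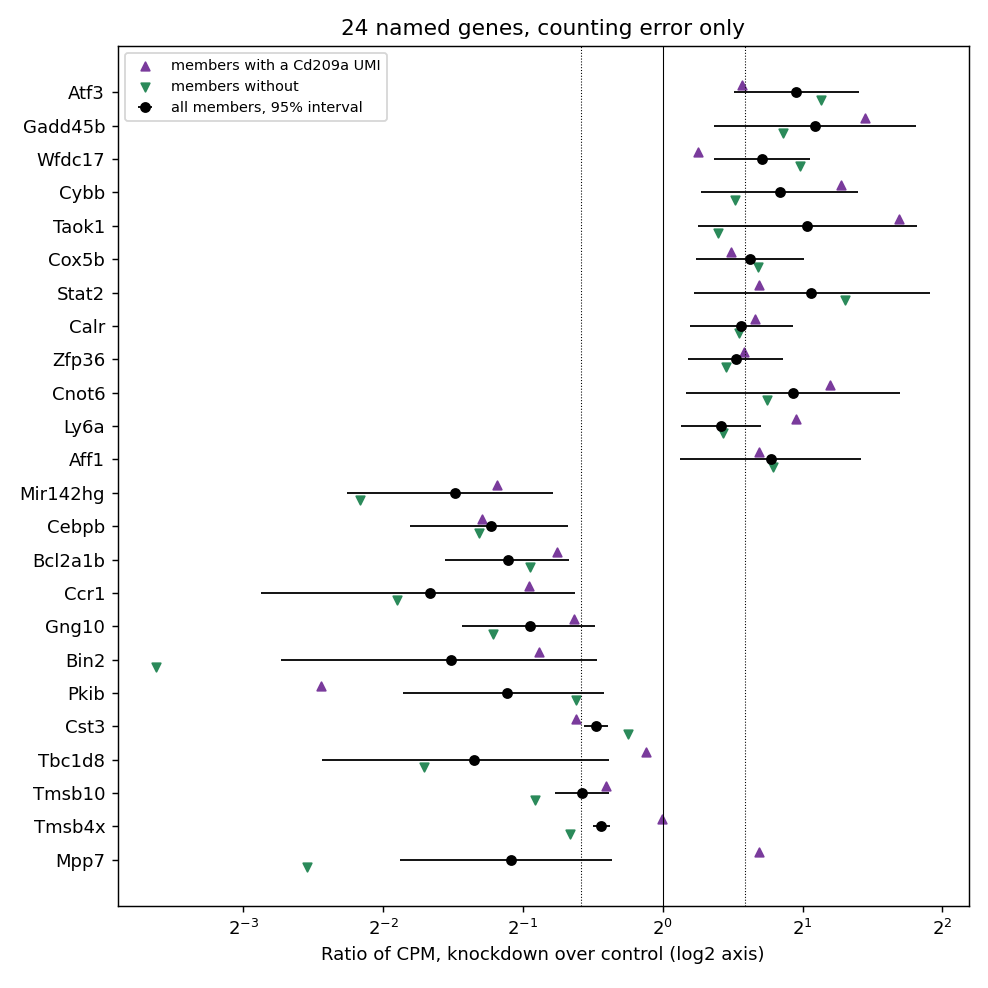
Ratio of CPM, knockdown over control, on a log2 axis for the 24 named genes: all members with the 95% counting interval (black), members with a Cd209a UMI (purple) and members without (green). Dotted lines mark a fold of 1.5; the purple point of Mpp7 lies above 1 and its green point below.

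The same 24 genes were read in the other gates. In the macrophage gate 12 of the 12 lower genes and 7 of the 12 higher genes had ratios on the same side of 1, and 0 of either were past the fold. In the monocyte gate these counts were 12 and 8, with 2 lower and 0 higher genes past the fold. In the T-cell gate only 6 of the 12 lower and 7 of the 12 higher genes were on the same side, with 0 past the fold. The tumour gate gave 7 and 7, with 1 of each past the fold. In the sparse cDC1 gate 5 of the 12 lower and 6 of the 12 higher genes were on the same side, with 2 and 4 past the fold. The sparse mature gate gave 6 and 7, with 2 and 7 past the fold. The share of all genes on each side of 1 in these gates was not computed, so these counts have no background beside them. Atf3 had ratios of 0.911 in monocytes and 0.759 in macrophages, against 1.94 in the members. The difference between gates was not tested, since each rests on 1 library per group.

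Of 11 tested MHC class II genes 0 were higher and 0 lower, against 6.21% and 11.7% of all genes, with a median log2 ratio of -0.19. A count of 0 among so few genes does not set the list apart from that background. H2-Aa stood at 6903 CPM in control and 6698 CPM in knockdown members, a ratio of 0.970 (interval 0.903 to 1.04). H2-Eb1 was lower, at 7053 and 5462 CPM, with a ratio of 0.774 (interval 0.717 to 0.836). Ifi30, a thiol reductase for antigen processing, stood at 1278 and 1412 CPM, a ratio of 1.10. Of 17 tested MHC class I genes 0 were higher and 1 lower, the proteasome activator subunit Psme2 at 0.596 (interval 0.406 to 0.858), while B2m had a ratio of 1.16 (interval 1.05 to 1.27).

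Transcription factors of dendritic cells were lower where they passed the fold. Of 21 tested, 0 were higher and 5 lower, against 6.21% and 11.7% of all genes, with a median log2 ratio of -0.18. The lower ones were Cebpb, Notch2, Runx1, Id2 and Nr4a3. Runx1 stood at 660 CPM in control and 421 CPM in knockdown members, a ratio of 0.639 (interval 0.483 to 0.837). Id2 stood at 408 and 262 CPM, a ratio of 0.642 (interval 0.448 to 0.906). Notch2, a receptor that guides cDC2 differentiation, had a ratio of 0.585 (interval 0.329 to 0.997), which turned to 1.27 among members with at least 3 marker UMIs. Irf8 and Spi1 had ratios of 0.939 and 0.964.

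Chemokine genes went in different directions. Of 7 tested chemokines, 2 were higher and 1 lower, against 6.21% and 11.7% of all genes. Cxcl9, which attracts T cells through CXCR3, stood at 446 CPM in control and 1093 CPM in knockdown members, a ratio of 2.45 (interval 1.96 to 3.07), with 28.6% of its control UMIs in 1 barcode. Cxcl9 was also higher in knockdown monocytes, at 1934 against 1055 CPM, and in knockdown macrophages, at 2633 against 1491 CPM. Ccl4 had a ratio of 1.85, with 82.8% of its knockdown UMIs in 1 barcode. Ccl5 stood at 376 and 154 CPM, a ratio of 0.409 (interval 0.259 to 0.625) that turned to 6.44 among members with Cd209a, and 44.1% of its control UMIs came from 1 barcode. Il1b, the inflammatory cytokine IL-1 beta, had a ratio of 0.826 (interval 0.699 to 0.973), and of 1.13 with at least 4 marker UMIs. Il12b and Ido1 had 0 UMIs in both libraries.

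Of 9 tested cytokine receptors, 0 were higher and 2 lower, against 6.21% and 11.7% of all genes. The lower ones were Csf1r at 0.611 and Crlf2 at 0.553. Csf2rb, the shared GM-CSF and IL-3 receptor chain, had a ratio of 1.46 (interval 1.06 to 2.02). Of 4 tested chemokine receptors only Ccr1 was past the fold, and of 3 tested costimulation genes, Cd48 was lower at 0.531 (interval 0.300 to 0.897), while Cd86 and Cd83 had ratios of 0.771 and 1.11. Cd274, encoding PD-L1, had a ratio of 0.709 (interval 0.427 to 1.14), and 0 of 7 tested checkpoint ligands were past the fold. The background of 6.21% and 11.7% also stands beside the counts of these lists and of the lectins, each of 3 to 7 tested genes. Of 3 tested lectins 2 were higher and 1 lower. Mgl2 had a ratio of 1.70 (interval 1.16 to 2.48) and Clec10a 1.51 (interval 0.922 to 2.47), and Cd72 was lower at 0.392 (interval 0.168 to 0.819). For Mgl2, 1 barcode of each library held 27.9% of the control and 32.8% of the knockdown UMIs. Clec10a was also higher in members with Cd209a, whose share was larger in the knockdown library, and the part of this was not tested. Of 13 tested uptake and oxidase genes 1 was higher, Cybb, and 3 were lower, beside the same 6.21% and 11.7%. Among the lower ones, the Fc receptor gene Fcgr4 had a ratio of 0.610 (interval 0.307 to 1.14).

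Of 21 tested immediate early genes that also respond to tissue dissociation, 4 were higher and 2 lower, against 6.21% and 11.7% of all genes. Egr1 stood at 82.9 and 199 CPM, a ratio of 2.40 (interval 1.41 to 4.16), and Ier2 at 175 and 85.4 CPM, a ratio of 0.487 (interval 0.256 to 0.875). For Egr1, 1 barcode of each library held 30.8% of the control and 31.4% of the knockdown UMIs. For Ier2 these shares were 25.45% and 26.67%. Fos and Jun had ratios of 0.996 and 0.969. Of 9 tested ER chaperones, 0 were past the fold of 1.5 in either direction, while their median log2 ratio was 0.42 against -0.06 over all genes. Hspa5 (BiP) had a ratio of 1.38 (interval 1.05 to 1.82), Hsp90b1 1.46 (interval 1.10 to 1.94), Pdia3, a disulfide isomerase, 1.36, and Calr 1.48. The site-1 protease and sterol list had 3 tested genes, of which Fdps was lower at 0.581 (interval 0.285 to 1.11), with 38.5% of its knockdown UMIs in 1 barcode. Of 20 tested interferon genes 1 was higher and 2 lower, shares close to the 6.21% and 11.7% of all genes. Stat2 stood at 2.08, Isg15 at 0.474 (interval 0.295 to 0.737) and Iigp1 at 0.596. For Isg15, 38.5% of the knockdown UMIs came from 1 barcode.

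Of 30 cell-cycle genes 5 were tested, of which 1 was higher, Top2a, and 0 lower, beside 6.21% and 11.7% of all genes. At least 1 UMI of Mki67 or Top2a was found in 8 of 57 control and 15 of 44 knockdown members, and at least 5 UMIs of the 2 genes summed in 3 and 2. These counts were not thinned to equal depth. Top2a had a ratio of 1.79 (interval 1.07 to 2.99), with 51.5% of its control and 42.4% of its knockdown UMIs in 1 barcode. Of 12 tested glycolysis and hypoxia genes 1 was higher and 2 lower, against 6.21% and 11.7% of all genes. Ndrg1 was at 1.91 and Pfkp and Eno1 at 0.640 and 0.622. Ndrg1 drew 53.1% of its knockdown UMIs from 1 barcode and turned to 0.792 without the plasmacytoid-rich members.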

How the data were processed

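The authors deposited unfiltered UMI counts, 1 matrix of 32285 features per library, made with Cell Ranger 4 per the file headers. Libraries came from a 10x 3' kit, per the labels' protocols. No source used here names the genome build or annotation, or says how reads of similar genes were assigned. The authors' own cell calls were not used here.

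Members and lists were chosen with earlier results of these data known. Member counts were summed per library and scaled to CPM. Ratios, knockdown over control, carry exact conditional Poisson intervals and shares Clopper-Pearson intervals at 95%. Cells are not replicates, so nothing was tested across genes. Calls rest on a fold of 1.5 among genes with at least 50 UMIs and 50 CPM that the rule did not use. Named genes are 12 of high and 12 of low ratio, ranked by the interval end closer to 1, and the extremes and 3 most abundant genes of each of 39 lists; other genes named were chosen after their values were seen. Mitochondrial, ribosomal and unnamed genes, genes not above the level in barcodes of at most 100 UMIs, and genes with over 25% of UMIs in 1 barcode were left out of the 24. Other gates used comparable rules on UMIs of Xcr1 and Clec9a (cDC1), Ccr7 and Fscn1 (mature), Ly6c2, Ccr2 and Csf1r (monocyte), C1q (macrophage), Cd3d and Cd3e (T cell) and Hmga2 and Rhox5 (tumour). Doublets were scored with Scrublet in Scanpy 1.11.5 on eligible barcodes, which called 3.86% of control and 4.97% of knockdown barcodes, and were kept. Shares were thinned to 1000 UMIs with a fixed seed. Interval code was tested on simulated data. Analyses used Python 3.11.15, NumPy 2.4.6 and SciPy 1.17.1.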

Additional observations from a re-analysis of the deposited data

How the results depend on the processing

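With 1 library per group, 101 members and 489345 member UMIs, the intervals cover counting error only, and genes with few UMIs give wide ratios. No paired analysis was possible because each group holds 1 library and no result comes from a test. The share ratio of 0.596 lay between 0.441 and 0.741 under every alternative with eligible barcodes as denominator, and at 1.11 among the dendritic gates, where the denominator itself is mostly members. Its interval included 1 with at least 4 marker UMIs, without Flt3 in the marker sum, with thinned counts and among members with Cd209a. The 92 higher and 173 lower of 1482 genes tested became 57 and 76 of 521 with at least 4 marker UMIs. They became 2805 and 1887 of 9288 with no minimum beyond 1 UMI in each library, and 10 and 11 of 314 with at least 200 UMIs. At a fold of 2 they were 17 and 35 of 1482. Without the top barcode of each gene 61 were higher and 234 lower, again of 1482. Among alternatives chosen after seeing the data, 93 of 1278 genes were higher and 115 lower without members of at least 5 plasmacytoid UMIs. With Cd209a, 32 of 485 genes were higher and 51 lower, and among members without it 61 of 863 were higher and 147 lower. At 2000 to 6000 UMIs, 55 of 826 genes were higher and 81 lower. Fewer genes were tested in each of these alternatives chosen after seeing the data, so a smaller count there alone does not show fewer differences. The same holds for at least 4 marker UMIs and for at least 200 UMIs. At a fold of 2 and without the top barcode, all 1482 genes were kept. The cause of these moves was not tested. Directions turned for Fabp5 (1.12) and Notch2 (1.27) with at least 3 marker UMIs, for Cd14 (1.16) and Ndrg1 (0.770) with at least 4, for Siglech (0.851) with C1q below 5 per 10000 UMIs, for Csf1r (1.19) with equal weight per barcode, and for Ndrg1 (0.792) without plasmacytoid-rich members. They also turned for Ccl5 (6.44), Fabp5 (1.03), Kynu (1.504), Mpp7 (1.61) and Notch2 (1.02) with Cd209a, for Top2a (0.779) without, and for Cd44 (0.838), Ifi205 (1.08) and Ndrg1 (0.911) at 2000 to 6000 UMIs. Ratios inside the fold of 1.5 crossed 1 more often, in 45 of 76 genes recomputed under at least 1 alternative, against 12 of 50 genes past it. Among the 24 named genes these were Cst3 (1.06) and Zfp36 (0.920) at 2000 to 6000 UMIs and Ly6a (0.887) with at least 3 marker UMIs, beside Mpp7. Il1b crossed to 1.13 with at least 4 marker UMIs. The cause of each turn was not tested.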

Other observations

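Klrd1, which encodes the NK-cell receptor chain CD94, had 112 UMIs in control and 35 UMIs in knockdown members, a ratio of 0.558 (interval 0.371 to 0.823), while the other 11 T and NK genes together held 14 and 8 UMIs. Among 21 tested lysosomal genes, 2 were at least 1.5 times higher in the knockdown library and 1 lower, against 6.21% and 11.7% of all genes tested, and the list's median log2 ratio of -0.07 was close to that of all genes (-0.06). Cd63, a tetraspanin of late endosomes, stood at 82.9 CPM in control and 296 CPM in knockdown members, a ratio of 3.57 (interval 2.19 to 5.96), with 34.6% of its knockdown UMIs in 1 barcode. Ctsb, encoding cathepsin B, had a ratio of 1.59 (interval 1.15 to 2.21), and Ctsh, encoding cathepsin H, 0.599 (interval 0.435 to 0.816).

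Batf3, a cDC1 factor, had 15 UMIs in control members and 0 in knockdown members, which allows up to 17.1 CPM there. It fell short of the 50 UMIs required for a call and was picked out after its values were seen.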
